A study of Saccharomyces cerevisiae with 12 samples.

Results

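The genes for the proteins of the mitochondrial ribosome were followed in budding yeast (Saccharomyces cerevisiae, CEN.PK background) across 6 genotypes. They were taken by symbol: every gene called MRPL, MRPS, MRP or RSM followed by a number only. This gave 66 of the 7126 genes of the deposited table, of which 34 were MRPL, 9 MRPS, 12 MRP and 11 RSM genes. By their known place in the ribosome, 37 encode proteins of the large subunit and 27 proteins of the small subunit. The other two are not ribosomal proteins in the strict sense: RSM22 encodes a methyltransferase-like factor of the small subunit, and MRP8 encodes a protein of unknown function that was once taken for a ribosomal one.

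The genotypes were set2 (SET2 deleted), cho2 (CHO2 deleted), opi1 (OPI1 deleted), cho2set2 and opi1set2 (both genes deleted), and WT, with 2 RNA sequencing libraries each. Set2 methylates lysine 36 of histone H3 over transcribed genes, Cho2 carries out the first methylation that turns phosphatidylethanolamine into phosphatidylcholine, and Opi1 represses genes of phospholipid synthesis. All cells, WT included, had grown in the rich lactate medium YPL and had then spent 1 h in SL, a minimal medium, after a wash. The study asked how phosphatidylcholine synthesis and histone H3 lysine 36 methylation depend on each other in such a change of medium. Whether a genotype's 2 libraries stem from separate cultures is not stated in the labels. The p-values rest on the spread between libraries of the same genotype, shared over genotypes and genes, and that spread may be technical.

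Mitochondria keep their own ribosome, which makes the few proteins encoded by mitochondrial DNA, most of them core subunits of the respiratory chain and of ATP synthase. Its ribosomal RNAs come from mitochondrial DNA, while nearly all of its proteins are encoded in the nucleus, made in the cytosol and imported. Many of these proteins have a bacterial homologue, and others exist in mitochondria only. In yeast their messenger RNAs are known targets of Puf3, a protein that binds the letters TGTANATA (with U for T in the RNA) downstream of the stop codon, holds these messages back and promotes their decay in fermenting cells, and takes a different part during respiration.

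This motif was searched on the coding strand in the 250 bases after each stop codon, in the yeast reference genome R64 (sacCer3). It was found in all 37 large subunit genes and all 27 small subunit genes, and in neither MRP8 nor RSM22, so that 64 of the 66 genes (97.0%) held it, against 909 of 5980 protein-coding genes (15.2%). On the opposite strand of the same windows it stood in 14 of the 66 genes (21.2%) and in 872 of all protein-coding genes (14.6%). The first site began between 8 and 139 bases after the stop codon, at a median of 51; 50 genes had 1 site, 12 had 2 and 2 had 3. Its variable letter was A in 32 genes, T in 19, C in 12 and G in 1. A match is a run of letters and no measured binding. Sites of 8 genes are shown, those of genes whose levels are described below: the motif is in capitals, and each is written 5′ to 3′ on the strand of its gene.
MRPL4 (chrXII:1015470-1015493, plus strand): ctctctccTGTAAATAtatatata
MRPL3 (chrXIII:323057-323080, plus strand): tgccatttTGTAGATAgagaactc
MRPL7 (chrIV:937567-937590, plus strand): attcgtcaTGTAAATAtataaact
MRPL40 (chrXVI:224136-224159, plus strand): attcgaccTGTATATAtgaaagca
MRP4 (chrVIII:100432-100455, plus strand): cctaaactTGTACATAtgcccata
MRP13 (chrVII:647067-647090, minus strand): aacataccTGTAAATActaaaaag
MRP49 (chrXI:133681-133704, minus strand): tttgttcaTGTATATAtcaaaaaa
RSM19 (chrXIV:695027-695050, minus strand): ggatctagTGTATATAgatttcta

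Libraries held 7383001 to 9461609 counts on genes, and the 66 genes together took 0.371% to 0.549% of them. All 66 passed the filter on low values, and the lowest count of any of them in any library was 41. SET2 had 0 counts in both set2 libraries and both opi1set2 libraries, and 149 to 239 counts in the 6 libraries of cho2, opi1 and WT. The library labelled cho2set2 replicate 1 had 50 SET2 counts and its partner 0, so the main counts and medians that rest on it are given with and without it, and cho2set2 is named here by its label. CHO2 had 2 to 13 counts in the libraries labelled cho2 and cho2set2, against 3305 and 3320 in WT. OPI1 had 0 or 1 count in those labelled opi1 and opi1set2, against 980 and 1227 in WT. Values are shares of a library, so a change of all RNA in a cell would not be seen.

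Levels per length differed widely among the 66 genes. The mean FPKM over the 12 libraries (counts scaled to exonic length and to the total of the library) had a median of 81.6 and ran between 10.98 for RSM22 and 1027 for MRP8. MRPS12, the homologue of bacterial S12 at the decoding centre, stood next to the top with 500.7 FPKM, and MRPS16, the homologue of S16, followed with 246.5 FPKM. Next to the bottom were MRPL4 (23.4 FPKM) and MRPL19 (26.4 FPKM), the homologues of bacterial L29 and L11. Both genes that are no ribosomal subunit thus sat at the ends of the range.

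Summed over the 66 genes, the mean level of a genotype lay between 4104 CPM in opi1 and 4865 CPM in cho2set2. CPM are counts scaled to library size and by TMM, a factor that evens out library composition. The sum was 4592 ± 240 in set2, 4147 ± 123 in cho2, 4104 ± 135 in opi1, 4865 ± 731 in cho2set2, 4420 ± 346 in opi1set2 and 4124 ± 243 in WT (mean ± SD, n = 2 each). The cho2set2 sum was uneven, with 5382 CPM in the library labelled replicate 1 and 4348 CPM in replicate 2. MRP8 alone gave 488.9 and 550.4 CPM of the set2 sums, against 755.6 and 792.7 CPM of the WT sums. The large subunit sum was 1.075 to 1.203 times the small subunit sum in every library.

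Loss of SET2 came with higher levels of 23 of the 66 genes and a lower level of 1, MRP8 (set2 against WT, edgeR's quasi-likelihood test, Benjamini-Hochberg adjusted p below 0.05). Of all 6580 genes tested, 18.5% were called higher and 15.9% lower. The median log2 change of the 66 genes was 0.29, with 54 of them above 0, beside a median of -0.01 for all genes tested. The call rate in the lower direction was 1 of 66, or 1.52%.

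In the large subunit, 14 of 37 genes rose in set2 and none fell, with a median log2 change of 0.24. Of all genes tested 18.5% were called higher and 15.9% lower. MRPL4 (uL29m, by the exit of the peptide tunnel; chromosome XII, 1014491 to 1015450, plus strand, single exon of 960 bases) had 47.5 and 34.0 CPM in set2, against 19.1 and 13.4 CPM in WT. Its log2 change was 1.33 ± 0.35 (SE; adjusted p = 0.00832), with groups that did not overlap although the set2 libraries lay far apart. MRPL3 (mL44, a mitochondria-specific protein with an RNase III-like fold; chromosome XIII, 321875 to 323047) had 51.0 and 48.4 CPM in set2, against 24.9 and 19.4 CPM in WT. The log2 change was 1.17 ± 0.16 (adjusted p = 8.86e-05). MRPL7 (uL5m, in the central protuberance; chromosome IV, 936615 to 937493) had 84.0 and 74.1 CPM in set2, against 42.5 and 37.2 CPM in WT (0.99 ± 0.16 on the log2 scale, adjusted p = 0.00027). MRPL40 (uL24m, also near the tunnel exit) had 52.4 and 52.0 CPM in set2, against 33.7 and 26.3 CPM in WT. The log2 change was 0.80 ± 0.17 (adjusted p = 0.00234). In each of these genes both set2 libraries lay above both WT libraries. The other large subunit genes called higher lay between 0.42 for MRPL1 and 0.77 for MRPL15.

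In the small subunit, 8 of 27 genes rose in set2 and none fell, with a median log2 change of 0.31, beside the same 18.5% and 15.9% of all genes. MRP13 (mS44, mitochondria-specific; chromosome VII, 647123 to 648142) had 47.4 and 46.0 CPM in set2, against 27.2 and 20.2 CPM in WT (0.98 ± 0.19 on the log2 scale, adjusted p = 0.00138). MRP4 (uS2m, the homologue of bacterial S2; chromosome VIII, 99219 to 100403) had 53.8 and 56.4 CPM in set2, against 34.9 and 23.9 CPM in WT. The log2 change was 0.91 ± 0.17 (adjusted p = 0.000934). RSM23 (mS29, a GTP-binding protein) had 106.7 and 114.5 CPM in set2, against 74.2 and 64.7 CPM in WT (0.67 ± 0.14 on the log2 scale, adjusted p = 0.0017). The set2 and WT libraries did not overlap in any of them.

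The members that are no ribosomal protein moved in opposite directions. RSM22 (chromosome XI, 159456 to 161342, minus strand) had 27.09 and 28.02 CPM in set2, against 13.7 and 11.5 CPM in WT. The log2 change was 1.13 ± 0.20 (adjusted p = 0.00063). MRP8 (chromosome XI, 178515 to 179174, plus strand) had 488.9 and 550.4 CPM in set2, against 755.6 and 792.7 CPM in WT (-0.57 ± 0.16 on the log2 scale, adjusted p = 0.0101). Both lack the Puf3 motif in the window searched.

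Of 24 mitochondria-specific proteins 12 rose in set2, with a median log2 change of 0.43. Of 40 proteins with a bacterial homologue 10 rose, with a median of 0.24, where 18.5% of all genes tested were called higher. The difference between these classes was not tested. Single libraries weigh on these counts: without WT replicate 2 the number called was 7, without set2 replicate 1 it was 10 and without set2 replicate 2 it was 14. MRPL4 and MRP8 were not called without set2 replicate 1 (adjusted p = 0.1 and 0.099) or without WT replicate 2 (adjusted p = 0.0837 and 0.0564), while MRPL3, MRPL7, MRP13 and RSM22 were called without each of these. MRPL9, called higher, overlaps a gene on the opposite strand over 303 of its 810 bases, and the strand setting of the counting is not given in the sources used here.

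**Figure D1:**
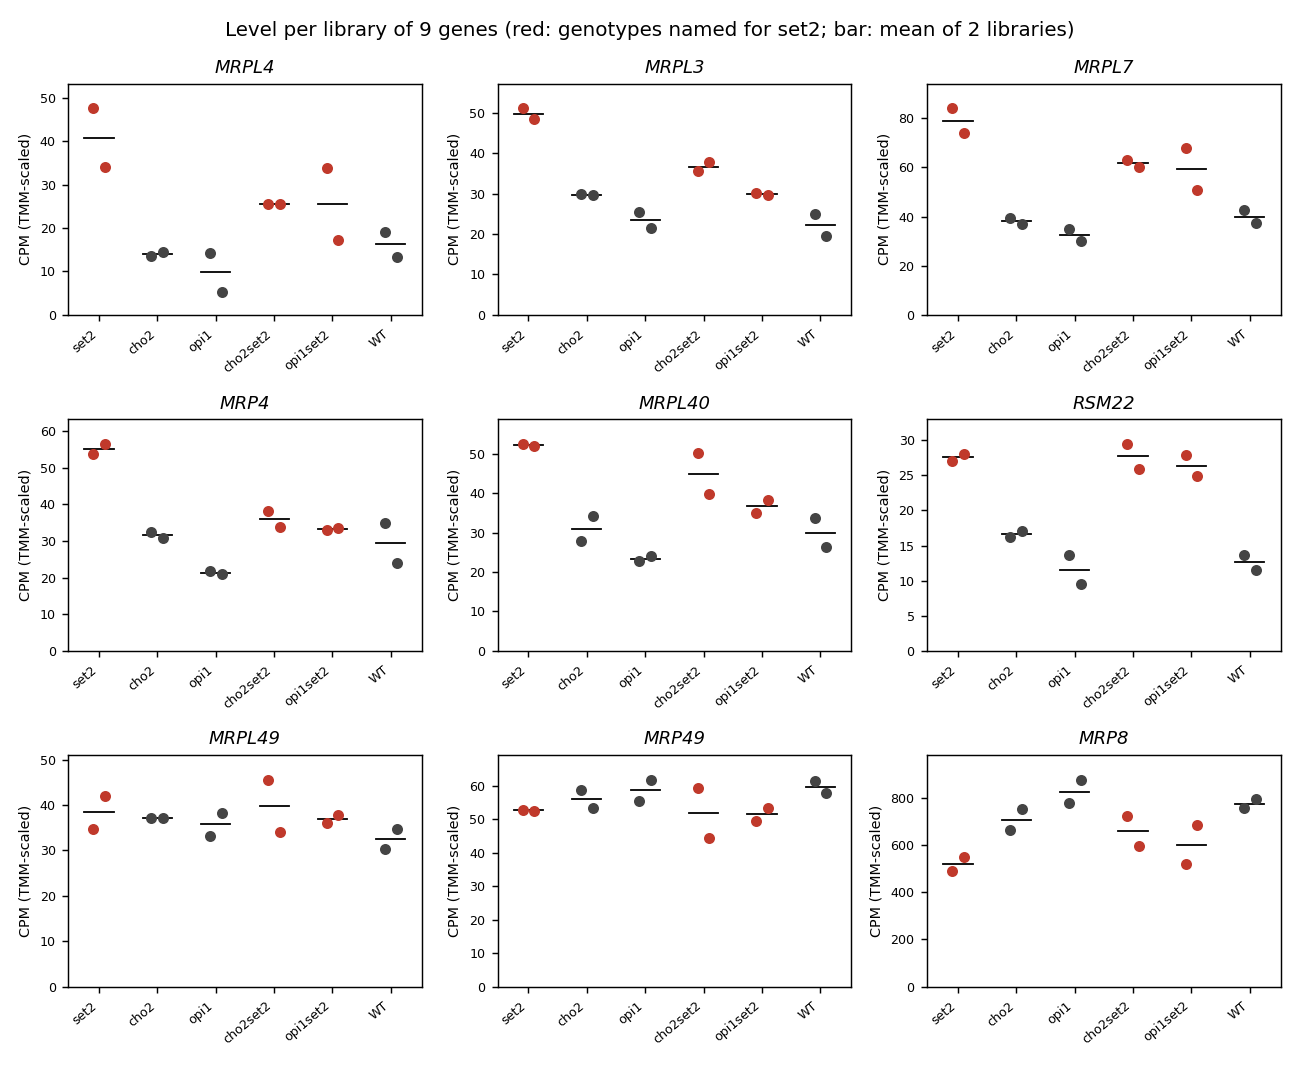
Level per library (y axis, TMM-scaled CPM, starting at 0) of 9 genes in set2, cho2, opi1, cho2set2, opi1set2 and WT, with 1 point per library, a bar at the mean of 2 and red for genotypes named for set2. MRPL7, RSM22 and MRPL40 have every red point above every grey one, in MRPL40 by a narrow gap (34.96 against 34.14 CPM). MRPL49 and MRP49 are among the most even genes, and MRP8 is lowest in set2.

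SET2 loss was also measured in the background of each lipid mutant, with libraries that the set2 and WT pair does not share. In cho2set2 against cho2, 13 of 66 genes were higher and none lower, where 11.2% and 5.53% of all genes tested were, with a median log2 change of 0.32 beside 0.00 for all genes. Without the library labelled cho2set2 replicate 1, MRPL7 was the one gene still called (log2 change 0.65, adjusted p = 0.0359), which is 1.52% of the 66 where 10.9% of all genes were higher, and the median was 0.14. In opi1set2 against opi1, 21 were higher and 1, MRP8, was lower, where 23.5% and 20.8% of all genes were, with a median of 0.33 beside 0.01 for all genes. The share called higher in the opi1 background, 31.8%, was thus nearer to that of all genes than the share called lower, 1.52%. By subunit, 7 of 37 large and 5 of 27 small subunit genes rose in cho2set2 against cho2 (1 and 0 without that library), and 12 of 37 and 8 of 27 rose in opi1set2 against opi1.

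Of the 4 genes called higher in each of the 3 backgrounds, RSM22 had the largest log2 changes. It had 29.44 and 25.98 CPM in cho2set2, against 16.2 and 17.1 CPM in cho2 (log2 change 0.74 ± 0.20, adjusted p = 0.0175), and 27.9 and 24.9 CPM in opi1set2, against 13.7 and 9.48 CPM in opi1 (1.19 ± 0.20, adjusted p = 0.000312). MRPL7 had 63.1 and 60.1 CPM in cho2set2, against 39.41 and 36.95 CPM in cho2 (0.69 ± 0.16, adjusted p = 0.00715), and 68.0 and 50.6 CPM in opi1set2, against 34.8 and 29.9 CPM in opi1 (0.88 ± 0.16, adjusted p = 0.000527). The others with a call in each background were MRPL40, with log2 changes of 0.80, 0.54 and 0.65 in the WT, cho2 and opi1 backgrounds, and MRPL1 (uL1m, of the stalk where spent transfer RNA leaves), with 0.42, 0.46 and 0.42. These 4 are 6.06% of the 66 genes, where 8.42% of all genes tested were called higher in all 3 backgrounds. Without the library labelled cho2set2 replicate 1, MRPL7 alone was called in each, and 8.45% of all genes were.

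A further 12 genes were called higher in 2 backgrounds, 21 in 1 and 29 in none (12, 19 and 34 without the library labelled cho2set2 replicate 1). Of all 6580 genes tested, with all libraries, 480 were called higher in 2 backgrounds, 881 in 1 and 4665 in none. By direction alone, 45 of the 66 (68.2%) lay above 0 in all 3 backgrounds, where 30.3% of all genes tested did. Without the library labelled cho2set2 replicate 1 it was 37 of the 66 (56.1%) and 29.7% of all genes. Some genes were called in a lipid mutant background without a call in set2 against WT. MRPS17 (uS17m) had 91.2 and 65.6 CPM in cho2set2, against 42.3 and 48.7 CPM in cho2, a log2 change of 0.79 ± 0.18 (adjusted p = 0.008). MRPL39 (bL33m) had 67.1 and 52.1 CPM in cho2set2, against 37.04 and 35.48 CPM in cho2 (0.72 ± 0.18, adjusted p = 0.014), and MRPL33 (uL30m) had 67.5 and 47.2 CPM, against 37.4 and 35.6 CPM (0.66 ± 0.18, adjusted p = 0.0221). In these 3 genes the library labelled cho2set2 replicate 1 was the higher of its pair.

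In the opi1 background MRPL4 had the largest change among the calls with all libraries, with 33.7 and 17.3 CPM in opi1set2, against 14.4 and 5.32 CPM in opi1 (1.39 ± 0.38, adjusted p = 0.00769). With 1 of these libraries left out its log2 change ran between 0.83 and 2.27. MRPS8 (uS8m) had 26.5 and 22.5 CPM in opi1set2, against 13.8 and 14.3 CPM in opi1 (0.80 ± 0.25, adjusted p = 0.0158). MRPL32 (bL32m, which is matured by a protease of the inner membrane before it joins the ribosome) had 31.0 and 43.9 CPM in opi1set2, against 21.4 and 22.7 CPM in opi1 (0.76 ± 0.20, adjusted p = 0.00678). MRP8 had 516.9 and 683.2 CPM in opi1set2, against 776.1 and 874.1 CPM in opi1, a log2 change of -0.46 ± 0.15 (adjusted p = 0.0257). Groups did not overlap in any of these genes.

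The counts in the cho2 background rest on single libraries. In cho2set2 against cho2, 60 of the 66 genes lay above 0, and 48 did without the library labelled cho2set2 replicate 1. The call of RSM22 there was lost without any one of the 4 libraries (adjusted p = 0.0501 to 0.117). Fewer of the 66 genes were called without cho2 replicate 1 or without cho2 replicate 2. Each fit without a library leaves 1 in its genotype, and the matching counts of all genes were not recorded. In opi1set2 against opi1, fewer of the 66 were also called without opi1 replicate 1 or opi1 replicate 2. MRPL4 lost its call there without opi1 replicate 2 (adjusted p = 0.0975) or opi1set2 replicate 1 (adjusted p = 0.0915), and MRP8 without opi1 replicate 1, opi1 replicate 2 or opi1set2 replicate 1 (adjusted p = 0.0515, 0.185 and 0.218). MRPS8 lost it without opi1 replicate 1, opi1 replicate 2 or opi1set2 replicate 1, and MRPL32 without opi1 replicate 1 or opi1set2 replicate 2 (adjusted p = 0.052 to 0.0867). MRPL7 and RSM22 were called there without each library.

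**Figure D2:**
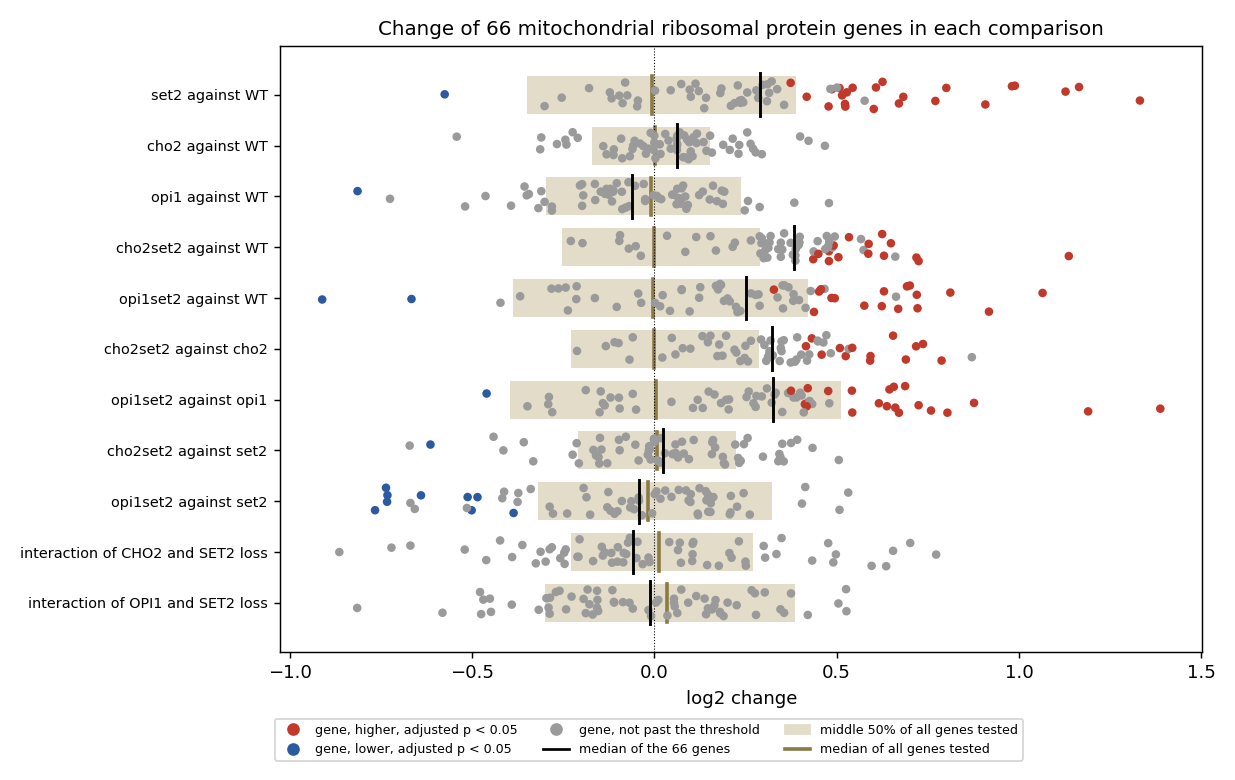
Log2 change (x axis) of each of the 66 genes in 9 comparisons of genotypes and 2 interaction terms (rows), red for higher and blue for lower at adjusted p below 0.05, with a black bar at their median, beside the median and middle 50% of all genes tested. The black bar lies right of the tan bar in set2 against WT, cho2set2 against cho2 and opi1set2 against opi1, with medians of 0.29, 0.32 (0.14 without the library labelled cho2set2 replicate 1) and 0.33, and near it in cho2 against WT and opi1 against WT.

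Taken by label across all genotypes, 11 of the 66 genes had every one of the 6 libraries of set2, cho2set2 and opi1set2 above every one of the 6 libraries of cho2, opi1 and WT. This held for 11.9% of all genes tested and for 16.7% of the 66; the reverse order held for 6.41% of all genes and for none of the 66. The 11 genes were MRP10, MRPL1, MRPL10, MRPL24, MRPL35, MRPL40, MRPL50, MRPL7, RSM22, RSM24 and RSM25. RSM22 ran between 24.9 and 29.4 CPM in the libraries of the 3 set2 genotypes, against 9.48 to 17.1 CPM in the others. MRPL7 ran between 50.6 and 84.0 CPM, against 29.9 to 42.5 CPM. Leaving out the library labelled cho2set2 replicate 1 can only keep or add genes in either order, so it is no check of the 11. It left the number higher at 11 and added 1 gene, MRP49, named after its values were seen, in the reverse order. That gap was narrow, with 53.32 CPM in opi1set2 replicate 2 against 53.47 CPM in cho2 replicate 2. The matching shares of all genes were not recorded, so no result is drawn from these counts.

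Loss of CHO2 alone gave no call among the 66 genes. In cho2 against WT, 0 were higher and 0 lower by edgeR's quasi-likelihood test, where 0.243% and 1.46% of all genes were, and DESeq2 also called 0. The median log2 change was 0.06. An unadjusted p below 0.05 was found in 4 of the 66, and the matching share of all genes was not recorded. The changes ran between -0.54 for RSM19 and 0.47 for MRPL15, neither of which passed.

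Loss of OPI1 alone gave a single call. In opi1 against WT no gene was higher and RSM19 was lower, where 8.94% and 8.77% of all genes were, and the median of the 66 was -0.06. RSM19 (uS19m, in the head of the small subunit; chromosome XIV, 695052 to 695327, minus strand) had 31.6 and 24.9 CPM in opi1, against 53.3 and 46.2 CPM in WT. The log2 change was -0.81 ± 0.26 (adjusted p = 0.0399). The groups did not overlap. RSM19 had 34.2 and 34.0 CPM in cho2, against the same WT values, but that change of -0.54 ± 0.25 did not pass (adjusted p = 0.447). Its call in opi1 was lost without any one of the opi1 and WT libraries (adjusted p = 0.0565 to 0.289). Across the genotypes it ran between 24.3 CPM in an opi1set2 library and 61.8 CPM in the library labelled cho2set2 replicate 1, whose partner had 31.0 CPM.

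The double mutants set against WT share the WT libraries with the comparison of set2, so the values are given side by side and are not independent of it. In cho2set2 against WT, 15 genes were higher and none lower, where 11.6% and 6.99% of all genes were, with a median of 0.38. Without the library labelled cho2set2 replicate 1 the median was 0.20 and 2 genes were called (3.03%), where 10.7% of all genes were higher. In opi1set2 against WT, 17 were higher and 2 lower, where 21.3% and 17.9% of all genes were, with a median of 0.25. RSM22 led both, with log2 changes of 1.14 ± 0.20 in cho2set2 (adjusted p = 0.000986) and 1.07 ± 0.20 in opi1set2 (adjusted p = 0.000817). MRPL15 (mL57) had 50.6 and 32.2 CPM in cho2set2 and 44.6 and 50.7 CPM in opi1set2, against 31.7 and 18.8 CPM in WT, with log2 changes of 0.72 ± 0.23 and 0.92 ± 0.23 (adjusted p = 0.0434 and 0.00609).

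Among the other calls in cho2set2 were MRPL3 (35.5 and 37.8 CPM, log2 change 0.72 ± 0.16, adjusted p = 0.00555), MRPS17 (0.65 ± 0.18, adjusted p = 0.0221) and MRPL7 (0.63 ± 0.16, adjusted p = 0.0114). In opi1set2 they included MRPL51 (mL43), MRPL20 (mL58) and RSM27 (mS33). MRPL51 had 44.8 and 72.2 CPM in opi1set2, against 35.1 and 31.4 CPM in WT (0.81 ± 0.20, adjusted p = 0.00444), and it overlaps a gene on the opposite strand over 323 of its 423 bases. MRPL20 had 36.11 and 37.01 CPM in opi1set2, against 23.2 and 21.2 CPM in WT (0.72 ± 0.19, adjusted p = 0.00809). RSM27 had 54.4 and 65.5 CPM in opi1set2, against 41.9 and 30.9 CPM in WT (0.72 ± 0.20, adjusted p = 0.0103). Both double mutants stood above WT without overlap in MRPL20.

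The 2 genes that fell in opi1set2 were RSM19, with 28.4 and 24.3 CPM (-0.91 ± 0.26, adjusted p = 0.0115), and MRP20. MRP20 (uL23m, a docking site for factors at the tunnel exit in bacteria; chromosome IV, 1277646 to 1278437) had 50.5 and 40.2 CPM in opi1set2, against 78.4 and 65.8 CPM in WT (-0.67 ± 0.16, adjusted p = 0.00424). It had 75.2 and 79.4 CPM in set2 and 65.9 and 49.9 CPM in opi1. Without WT replicate 2, fewer of the 66 were called in both comparisons, and the matching counts of all genes were not recorded. MRPL15, MRPL20 and RSM27 then lost their call in opi1set2, and MRPL3, MRPL7, MRPL15 and MRPS17 lost theirs in cho2set2. Without the library labelled cho2set2 replicate 1, RSM22 (log2 change 1.04, adjusted p = 0.0093) and MRPL3 (0.77, adjusted p = 0.0159) were the calls left in cho2set2 against WT. RSM19 lost its call in opi1set2 against WT without WT replicate 1 or opi1set2 replicate 2 (adjusted p = 0.0579 and 0.0542), and MRPL51 without opi1set2 replicate 2 (adjusted p = 0.0832), while MRP20 was called without each library.

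In opi1set2 against set2, 9 genes were lower and none higher. The 9 are 13.6% of the 66, near the 12.3% of all genes called lower, while 13.5% of all genes were called higher. The median of the 66 was -0.04. The 9 were MRP1, MRP20, MRP4, MRPL17, MRPL3, MRPL40, MRPL8, MRPS9 and RSM23. MRP20 changed by -0.77 ± 0.16 on the log2 scale (adjusted p = 0.00319). MRPL3 had 30.1 and 29.6 CPM in opi1set2, against 51.0 and 48.4 CPM in set2 (-0.74 ± 0.16, adjusted p = 0.00402). MRP4 had 32.9 and 33.4 CPM in opi1set2, against 53.8 and 56.4 CPM in set2 (-0.73 ± 0.17, adjusted p = 0.00617).

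MRPS9 (uS9m) had 75.6 and 65.9 CPM in opi1set2, against 117.2 and 117.9 CPM in set2 (-0.73 ± 0.16, adjusted p = 0.00466). MRPL8 (bL17m) had 35.5 and 40.2 CPM in opi1set2, against 63.9 and 54.2 CPM in set2 (-0.64 ± 0.20, adjusted p = 0.0262). In cho2set2 against set2 the one call was MRP4, with 38.1 and 33.9 CPM in cho2set2 (-0.61 ± 0.17, adjusted p = 0.0378), where 4% of all genes were higher and 3.88% lower. That call was lost without any one of the 4 libraries (adjusted p = 0.125 to 0.182). In that comparison 37 of the 66 genes lay above 0 and 29 below, with a median of 0.02 beside 0.008 for all genes tested. Without the library labelled cho2set2 replicate 1 it was 15 above and 51 below, with a median of -0.16 beside 0.014 for all genes. MRPL8 lost its call without set2 replicate 1 (adjusted p = 0.187) or either opi1set2 library. The count in opi1set2 against set2 was lower without set2 replicate 1, set2 replicate 2 or opi1set2 replicate 2. The matching counts of all genes were not recorded.

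Whether SET2 loss acted differently in a lipid mutant was tested by interaction terms. Each is the log2 change of the double against the lipid mutant, minus the log2 change of set2 against WT. No member passed in either by edgeR's quasi-likelihood test. For CHO2 and SET2, 0.365% of all genes were called higher and 0.547% lower by adjusted p. For OPI1 and SET2, 2.84% were called higher and 2.63% lower by adjusted p. An unadjusted p below 0.05 was found in 8 of the 66 for CHO2 and in 2, MRPL3 and RSM28, for OPI1. The share of all genes with an unadjusted p below 0.05 was not recorded, so these member counts cannot be placed beside it. MRPL3 had the smallest p in both, with interaction values of -0.86 ± 0.23 for CHO2 (adjusted p = 0.115) and -0.82 ± 0.23 for OPI1 (adjusted p = 0.0527). DESeq2 called MRPL3 alone in each (adjusted p = 0.0487 and 0.0319). These values for MRPL3 were picked out after they were seen. The medians of the 66 genes were -0.06 and -0.01, beside 0.013 and 0.036 for all genes tested. Without the library labelled cho2set2 replicate 1, the CHO2 median of the 66 was -0.19, beside 0.021 for all genes. MRPL3 then had an interaction value of -0.82 for CHO2.

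Any difference among the 6 genotypes was called for 40 of the 66 genes (60.6%), which is near the 61.2% of all genes tested. The smallest adjusted p-values belonged to MRPL7 (3.9e-05), RSM22 (0.000101), MRPL3 (0.000152), MRP4 (0.000235) and MRPL40 (0.000479). The most even genes were MRPL49 (bL21m; adjusted p = 0.682), MRP49 (mL61; 0.604) and MRPL44 (mL53; 0.552). MRP49 averaged 52.6 CPM in set2 and 59.6 CPM in WT, and MRPL49 averaged 38.4 CPM in set2 and 32.6 CPM in WT. Each of the 3 holds the Puf3 motif.

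**Figure D3:**
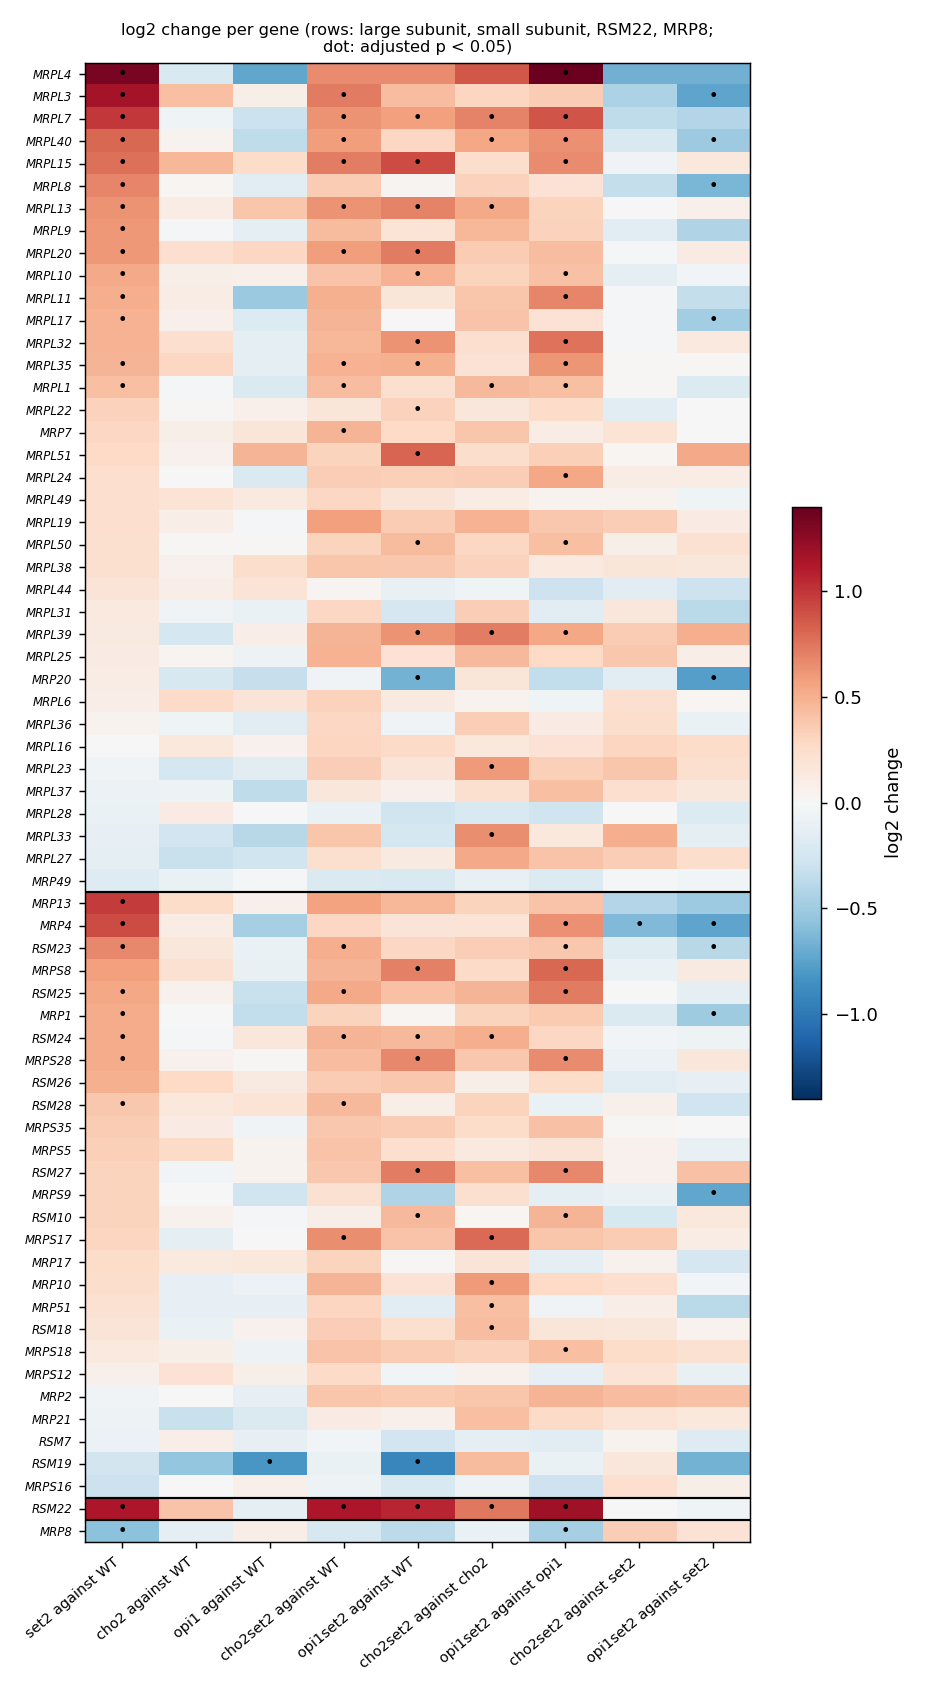
Log2 change (colour, red higher and blue lower) of each of the 66 genes (rows, large subunit, then small subunit, then RSM22 and MRP8, each sorted by set2 against WT) in 9 comparisons (columns), with a dot where the adjusted p was below 0.05. RSM22 is dotted in all 5 columns that set a genotype labelled set2, cho2set2 or opi1set2 against WT or its lipid mutant, and the columns cho2 against WT and opi1 against WT hold 0 and 1 dots.

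Within the family, the change with SET2 loss went with gene length and with level. Of the 22 genes of at most 483 bases of exon none was called higher in set2 against WT, of the middle 22 there were 7, and of the 22 longest, above 819 bases, there were 16. The median log2 changes were 0.13, 0.27 and 0.52. All genes tested in the same length ranges had medians of -0.18, -0.26 and 0.11, so the family lay above them in each range. Of all genes in these ranges 69 of 1522, 81 of 1025 and 1067 of 4033 were called higher, so calls were also most frequent among the long genes there. Split by mean FPKM instead, 16 of the 22 lowest genes, 6 of the middle 22 and 1 of the 22 highest were called higher, with medians of 0.53, 0.26 and 0.13. All genes in those level ranges had medians of 0.15, -0.13 and -0.21, and 947 of 3892, 120 of 1136 and 150 of 1552 were called higher. The rise of calls with length and their frequency at low level are thus not particular to the family.

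Over the 66 genes, Spearman's rho of the set2 against WT change was 0.684 with length and -0.759 with level, beside 0.373 and -0.253 over all 6580 genes tested. Length and level went together in the family, with rho of -0.623 between them, so that length and level cannot be told apart here. Genes share the same 4 libraries and are not independent points. In cho2set2 against cho2 the relation with length was near 0 (rho 0.045; medians 0.34, 0.32 and 0.33 for the short, middle and long genes). It was not flat without the library labelled cho2set2 replicate 1, where rho was 0.292 and the medians 0.09, 0.10 and 0.26. In opi1set2 against opi1 it was 0.254 with length and -0.551 with level. Between set2 against WT and opi1set2 against opi1, rho of the log2 changes was 0.597 over the 66 genes and 0.617 over all genes tested. Between set2 against WT and cho2set2 against cho2 it was 0.258 over the 66 genes (0.374 without that library) and 0.635 over all genes (0.668 without it). These are descriptions without a test.

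**Figure D4:**
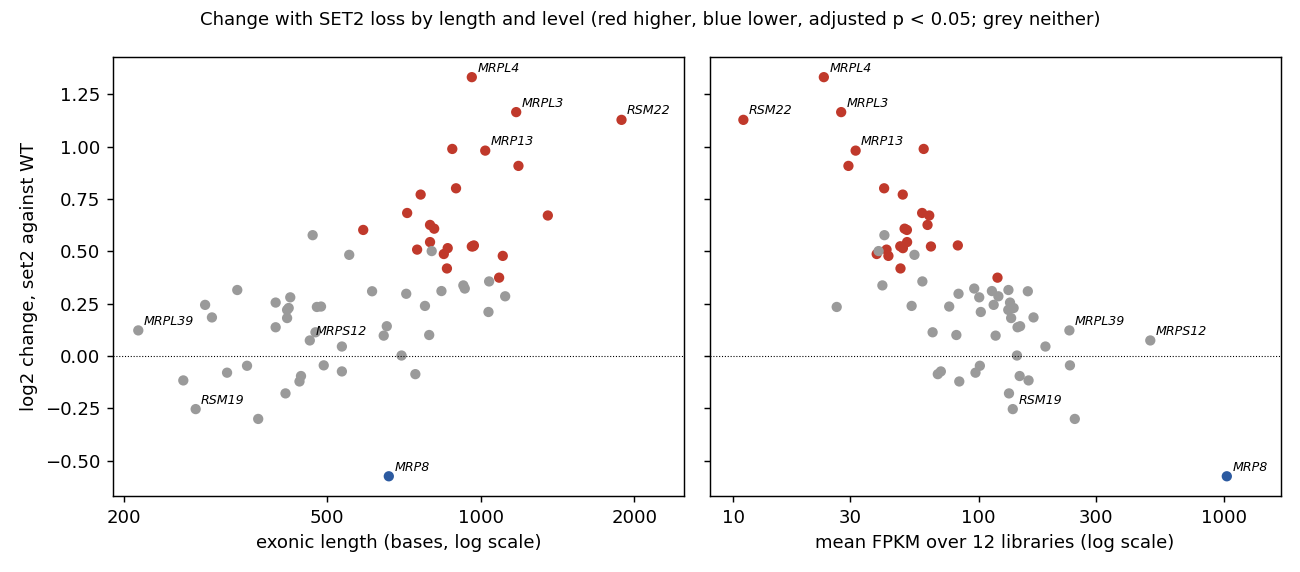
Log2 change in set2 against WT (y axis) of each of the 66 genes against exonic length in bases (left) and mean FPKM over 12 libraries (right), both on log axes, red for higher and blue for lower at adjusted p below 0.05. The genes at 0.77 and above have at least 762 bases of exon, and MRP8 stands alone at 1027 FPKM and -0.57.

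The Puf3 motif was set beside the changes of 5784 tested genes. These were nuclear protein-coding genes with the same start and end in RefSeq R64, and the other genes tested were left out. Apart from the 66, 833 of them held the motif and 4885 did not. In set2 against WT, 233 of those with it and 927 of those without it were called higher, with median log2 changes of 0.14 and -0.03. The 64 family members with it had a median of 0.29. In cho2set2 against cho2 the other genes with and without it had medians of 0.11 and -0.02 (0.05 and -0.02 without the library labelled cho2set2 replicate 1), and in opi1set2 against opi1 0.11 and -0.02. PUF3 itself had 61.1 and 55.8 CPM in set2, against 32.4 and 26.7 CPM in WT (0.98 ± 0.16 on the log2 scale, adjusted p = 0.000362). Its part in the changes of the family was not tested.

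The rest of the mitochondrial translation machinery was taken from 6 lists with 79 genes. In set2 against WT 44.2% of the 77 tested genes of these lists were called higher and 1.3% lower, beside 18.5% and 15.9% of all genes tested. Of other mitochondrial ribosomal proteins, which carry unrelated symbols, 14 were listed and 12 tested; VAR1, the one encoded in mitochondrial DNA, was at or near 0 counts and was not tested. In set2 against WT 3 of the 12 rose, MNP1 (0.63 ± 0.22, adjusted p = 0.0396), YML6 (0.60 ± 0.16, adjusted p = 0.00924) and RML2 (0.40 ± 0.14, adjusted p = 0.0454), and none fell, with a median of 0.29. They are homologues of bacterial L7/L12, L4 and L2. The Puf3 motif stood in all 13 of them that are encoded in the nucleus.

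Of 9 translation factors 6 rose in set2 against WT and none fell, where 18.5% of all genes were higher and 15.9% lower. MEF1, an elongation factor G, had 111.4 and 97.5 CPM in set2, against 33.6 and 38.8 CPM in WT (log2 change 1.53 ± 0.16, adjusted p = 9.51e-06). GUF1, a GTPase related to bacterial LepA, had 60.4 and 57.3 CPM in set2, against 23.3 and 18.9 CPM in WT (1.48 ± 0.18, adjusted p = 2.66e-05). Both lay above every member of the family in size of change. In cho2set2 against cho2 3 of the 9 rose, with and without the library labelled cho2set2 replicate 1, where 11.2% of all genes were higher with it. In opi1set2 against opi1 5 did, where 23.5% of all genes were.

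Of 16 aminoacyl-tRNA synthetases and related enzymes, which load mitochondrial transfer RNAs, 7 rose in set2 and 1 fell. All genes tested had 18.5% higher and 15.9% lower there. ISM1, for isoleucine, had 56.3 and 59.7 CPM in set2, against 24.1 and 29.4 CPM in WT (1.11 ± 0.15, adjusted p = 8.83e-05). NAM2, for leucine, changed by 0.93 ± 0.14 (adjusted p = 0.000173). In opi1set2 against opi1, 4 of these genes fell and 7 rose, where 20.8% of all genes were lower and 23.5% higher, so that the 4 of 16 are near the background. PET112 and HER2, subunits of the amidotransferase that makes glutamine-loaded transfer RNA, were among those that fell, with -0.88 ± 0.14 and -0.69 ± 0.16 (adjusted p = 0.000185 and 0.00318).

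Of 13 genes for ribosome assembly and ribosomal RNA modification 4 rose in set2, led by GEP3, a GTPase of small subunit assembly, with 44.8 and 54.4 CPM in set2, against 23.5 and 17.7 CPM in WT (1.27 ± 0.17, adjusted p = 6.37e-05). Of 20 activators of single mitochondrial messages and factors of membrane insertion 12 rose and none fell. Beside each list in this paragraph stand 18.5% of all genes called higher and 15.9% lower in set2 against WT. SOV1 had 62.4 and 74.0 CPM in set2, against 27.2 and 25.4 CPM in WT (1.37 ± 0.14, adjusted p = 9.78e-06), and PET111, the activator of COX2 translation, changed by 1.25 ± 0.15 (adjusted p = 3.15e-05). Of 7 regulators 2 rose, PUF3 and RPO41, the mitochondrial RNA polymerase (0.44 ± 0.12, adjusted p = 0.0116). In cho2 against WT none of the 77 tested genes of the 6 lists was called, where 0.243% of all genes were higher and 1.46% lower.

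**Figure D5:**
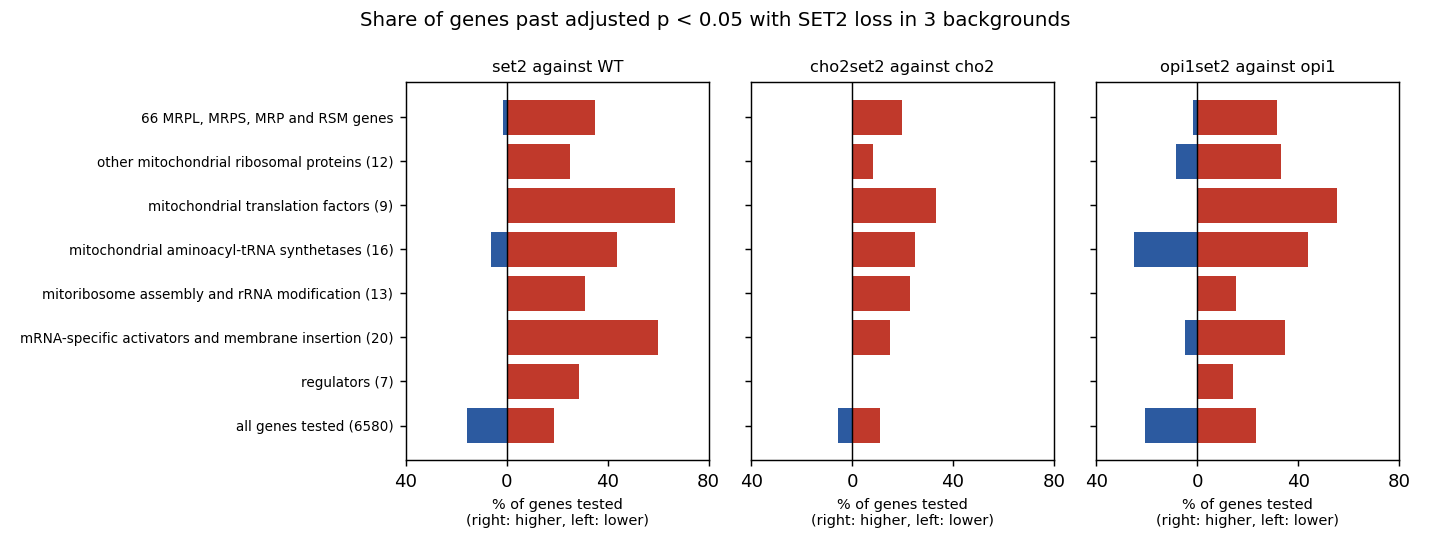
Share of genes tested (x axis, percent; right for higher and left for lower at adjusted p below 0.05) in the 66 genes, 6 lists of the mitochondrial translation machinery and all genes tested (rows, number tested in brackets), in set2 against WT, cho2set2 against cho2 and opi1set2 against opi1. Translation factors have the longest bars to the right among the lists in set2 against WT, 6 of 9, and all genes tested have the longest bar to the left there.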

How the data were processed

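RNA was extracted from cells 1 h after the change of medium, per the labels' protocols. The submitters' processing notes name cutadapt 1.9.1, HISAT2 2.0.1, HTSeq 0.6.1 and genome build sacCer3; the strand setting is not given in the sources used here. The authors deposited 1 table of 7126 genes with raw counts per library, FPKM per library (equal to counts per kilobase and total within 0.005) and the exonic size of each gene in bases, which was used as gene length.

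Counts were tested with edgeR 4.0.16 (TMM scaling, factors 0.897 to 1.077, quasi-likelihood test, 1 mean per genotype, 6 residual degrees of freedom, common biological coefficient of variation 0.12), 2-sided, at a threshold of 0.05. The model was fitted to the 6583 genes that reached an FPKM of 1 in 2 or more libraries. Benjamini-Hochberg adjustment and counts of calls omit the 3 deleted genes, which leaves 6580. The steps were tested on simulated data. A single gene with 2 libraries against 2 cannot go below p = 0.333 in an exact permutation test, so the model borrows its spread from all genes and genotypes. An SE was derived from the log2 change and its F statistic, from a count model that already holds counting error.

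The 66 genes and the lists were chosen with earlier results of these data known. Named genes were, per comparison, the 5 largest rises and 5 largest falls among the calls, the 5 genes with the smallest p for any difference, the 3 highest, 3 lowest and 3 most even genes, members that are no subunit, and up to 2 genes per list; genes named beyond these were chosen after their values were seen. Subunit and class came from protein family names. The motif was read from RefSeq R64, in which start and end of all 66 genes matched the table. Alternatives were median-of-ratios scaling, DESeq2 1.42.0, limma 3.58.1 on log2(FPKM + 1) and log2(FPKM + 0.1), no filter, a replicate block and each library left out in turn. The comparison of the 6 libraries of the 3 set2 genotypes with the 6 others, and the repeats of it and of other summaries without the library labelled cho2set2 replicate 1, were added after the data were seen. Figures were drawn with matplotlib 3.10.9.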

Additional observations from a re-analysis of the deposited data

Results flagged for a closer look

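None of the 66 genes had an interaction of OPI1 and SET2 loss past the threshold, but 8 of the 77 tested genes of the lists of the translation machinery did (10.4%), where 2.63% of all genes were lower and 2.84% higher: their change with SET2 loss was lower in the opi1 background than in cells with OPI1 (edgeR's quasi-likelihood test, Benjamini-Hochberg adjusted p below 0.05). MEF1 had an interaction value of -1.28 on the log2 scale, with 74.8 and 53.6 CPM in opi1set2, 55.9 and 52.1 CPM in opi1, 111.4 and 97.5 CPM in set2, and 33.6 and 38.8 CPM in WT; it passed in 14 of 15 alternative settings. MDM38, a membrane protein that helps mitochondrial ribosomes at the inner membrane, had -0.83 and passed in 12 of 15. Among synthetases and related enzymes MSR1 had -0.96 (7 of 15), HER2 -0.88 (6 of 15), NAM2 -0.85 (7 of 15) and PET112 -0.73 (5 of 15). MSS51, the activator of COX1 translation, had -0.84 (5 of 15), and AFG3, a subunit of a membrane protease, had -0.60 (5 of 15). Most of the 15 settings left out 1 library, and 1 of these was the library labelled cho2set2 replicate 1, whose genotype is not part of this term. With limma on log2(FPKM + 1) and on log2(FPKM + 0.1) only MEF1 and MDM38 of the 8 passed. For the other genes most passes came from edgeR and DESeq2 runs with all libraries or without the library labelled cho2set2 replicate 1. The cause was not tested.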

How the results depend on the processing

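All 12 counts of called members were recomputed under 6 alternatives and with single libraries left out. The matching counts of all genes were not recorded, except in part without the library labelled cho2set2 replicate 1. A fall in calls with a library left out can thus not be placed beside that of all genes. In set2 against WT, leaving out 1 library gave 7 to 25 calls, in cho2set2 against WT 1 to 17, in opi1set2 against WT 6 to 22, in cho2set2 against cho2 1 to 14, and in opi1set2 against opi1 9 to 23; the alternatives with all libraries stayed within 1.5 times in the first 4. With limma on log2(FPKM + 1) and on log2(FPKM + 0.1) opi1set2 against opi1 had 35 calls, where FPKM carry no TMM factor and the median of all genes moved to 0.19 and 0.20. The same alternatives gave 2 calls in opi1 against WT (RSM19 and MRPL11; all genes -0.14 and -0.15), where leaving out 1 library gave 0 to 2. They gave 0 in cho2set2 against set2, where leaving out 1 library gave 0 to 2. In opi1set2 against set2 limma on log2(FPKM + 0.1) gave 5, and leaving out 1 library 4 to 12. DESeq2 gave 1 call in each interaction term and median-of-ratios scaling gave 1 for OPI1 and SET2, in each case MRPL3; leaving out 1 library gave 0 to 2 in both terms. Cho2 against WT stayed at 0 and any difference at 28 to 43. Of 385 recomputed changes of named members 323 kept their side of the threshold, 62 lost it and none changed sign.

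Replicate numbers did not pair the libraries: same-numbered deviations from the group means correlated, in 15 pairs of genotypes, at between -0.329 and 0.329, with a median of 0.008. With a replicate block, set2 against WT had 24 calls, cho2set2 against cho2 9, opi1set2 against opi1 20 and any difference 37. The libraries of each genotype number 2, which is the main limit, and a count per gene does not tell where in the gene its reads lie.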

Other observations

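The mitochondrial ribosomal RNAs, which form the core of the ribosome whose proteins are described here, were not called in any comparison. The 21S ribosomal RNA averaged 183.2 ± 22.6 CPM in set2 and 335.3 ± 33.9 CPM in WT (SD, n = 2 each). Its log2 change was -0.87 ± 0.34 (edgeR's quasi-likelihood test, adjusted p = 0.0585). The 15S ribosomal RNA averaged 105.4 ± 9.13 CPM in set2 and 161.6 ± 13.4 CPM in WT, with a log2 difference of -0.62 ± 0.29 (adjusted p = 0.117). In cho2 the 21S ribosomal RNA averaged 187.1 ± 127.0 CPM, so its libraries lay far apart. VAR1, also encoded in mitochondrial DNA, had at most 0.388 CPM in any library. How fully these libraries hold RNAs made in mitochondria was not tested, so the values may not follow the amount of ribosomal RNA.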
